A study of Homo sapiens with 24 samples.

Results

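The genes described here are 5 enzymes of gluconeogenesis, PC, PCK1, PCK2, FBP1 and G6PC3, and their coactivator PPARGC1A. They are 6 of the 18132 genes that a PrimeView array names through probe sets with a single gene. The platform annotation gave them 15 probe sets: 5 for PCK1, 4 for PPARGC1A, 2 each for PC and PCK2, and 1 each for FBP1 and G6PC3. Where a gene had several, its probe set was chosen by the highest mean signal over the 24 arrays, so those means describe the choice and are not results. Such a mean includes the treated arrays, and a probe set that is bright in any group is favoured by it. The cells were Caki-1 and 769-P, 2 established human lines of renal cell carcinoma. Both were given the vehicle DMSO or dasatinib, which blocks the kinases ABL and SRC and their relatives. The dose was 1 µM and the exposure 6, 12 or 24 h, which makes 8 groups, and every group had 3 arrays. No time is stated for DMSO, so 1 DMSO group per line was set against every time and the comparisons with DMSO share it. Hours of drug and hours in culture therefore cannot be told apart. The labels call the arrays biological replicates without saying how the cultures were separated, so p-values measure the spread between these arrays, which may be technical.

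Gluconeogenesis makes glucose from lactate, glutamine and glycerol, and the kidney cortex is, with the liver, the organ that releases glucose made in this way. PC (pyruvate carboxylase) makes oxaloacetate from pyruvate in mitochondria. PCK1, in the cytosol, and PCK2, in mitochondria, convert oxaloacetate to phosphoenolpyruvate. FBP1 removes a phosphate from fructose 1,6-bisphosphate. A glucose 6-phosphatase releases free glucose, and G6PC3 is the widely expressed form of that enzyme, while G6PC1 is the form of liver and kidney. PPARGC1A (PGC-1 alpha) is a transcriptional coactivator that raises gluconeogenic and mitochondrial genes in fasting, and its own promoter is known as a target of CREB with the coactivator CRTC2.

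In the GRCh38.p14 annotation PC lies on chromosome 11 from 66848420 to 66958383, PCK1 on chromosome 20 from 57561110 to 57568121 and PCK2 on chromosome 14 from 24094171 to 24104125. FBP1 lies on chromosome 9 from 94603133 to 94640263, G6PC3 on chromosome 17 from 44070673 to 44076344, and PPARGC1A on chromosome 4 from 23792021 to 24472905. RefSeq promoter sequences of GRCh38.p14 matched 5 of the 6 genes, with 10 windows. The 250 bases before the start are shown for the 2 windows of PPARGC1A, the gene that rose at every time in both lines with its brightest probe set, and for the window of PC with the most matches. Capitals mark TGACG, the core letters of the cAMP response element that CREB and ATF factors bind. All 3 windows lie on the minus strand and are written 5′ to 3′ along the gene, at chr4:24472906-24473155, chr4:23881102-23881351 and chr11:66958384-66958633.
PPARGC1A window 1: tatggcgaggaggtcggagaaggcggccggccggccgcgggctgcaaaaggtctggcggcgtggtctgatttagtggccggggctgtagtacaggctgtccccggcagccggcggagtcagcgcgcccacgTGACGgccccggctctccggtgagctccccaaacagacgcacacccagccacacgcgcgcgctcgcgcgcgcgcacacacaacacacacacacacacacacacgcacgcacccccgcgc
PPARGC1A window 2: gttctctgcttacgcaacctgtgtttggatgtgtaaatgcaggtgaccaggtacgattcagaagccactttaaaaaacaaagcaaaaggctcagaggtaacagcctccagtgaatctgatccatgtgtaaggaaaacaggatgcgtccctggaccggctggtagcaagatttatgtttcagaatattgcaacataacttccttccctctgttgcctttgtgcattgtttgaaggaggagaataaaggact
PC window 1: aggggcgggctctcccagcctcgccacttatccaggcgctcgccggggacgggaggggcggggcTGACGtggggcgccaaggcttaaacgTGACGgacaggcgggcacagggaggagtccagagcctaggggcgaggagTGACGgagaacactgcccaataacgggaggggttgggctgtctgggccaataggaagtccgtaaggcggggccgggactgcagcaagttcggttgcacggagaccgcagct

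The first PPARGC1A window holds TGACG once, from 119 to 115 bases before the start, and the second window holds no match. The PC window holds TGACG 3 times, at 186 to 182, 160 to 156 and 111 to 107 bases before the start, all on the strand of the gene. Both strands were searched, and 2 of the 10 windows of these genes held the motif, beside 21.22% of all 35116 windows of the same length. Windows with the forkhead site GTAAACA (2.98% of all windows), the C/EBP and ATF composite site TGATGNAA (3.14%) or the estrogen-related receptor site AAGGTCA (3.44%) numbered 0 of 10 each. None of the 4 motifs contains another, and the matches describe the letters of the windows only.

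The median log2 signal of an array was 6.01 to 6.08, and replicate arrays had correlations of 0.993 to 0.997 with each other. The number of arrays limits the precision. A gene was tested in a line if its mean over the line's 12 arrays was above the 40th percentile of all probe set means, a log2 signal of 5.38 in Caki-1 and 5.36 in 769-P. This filter level is used below as a mark of dim signal and is no detection call. The renal and proximal tubule list had 12 markers on the array, of which 10 lay above the filter level in both lines, among them PAX8, KRT8, KRT18, VIM and ANPEP. Proximal tubule transport markers were split. CUBN (5.70 in Caki-1 and 6.12 in 769-P under DMSO) and SLC34A1 (5.86 and 6.17) lay above it in both lines. LRP2 (5.07 and 5.28) and AQP1 (4.85 and 4.99) lay below it. Of 17 markers of other cell types on the array, 9 in Caki-1 and 8 in 769-P lay above it. Of the leukocyte markers PTPRC was at 3.43 in Caki-1 and 3.39 in 769-P under DMSO, CD3E at 5.47 and 5.58, CD14 at 6.19 and 3.97, and CD68 at 8.004 and 8.62.

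PPARGC1A, the coactivator, rose at every time in both lines. Read from their brightest probe sets, none of the other genes did so. In Caki-1 it went from the dim range to a clearly brighter signal in 24 h. In 769-P it was already bright under DMSO and rose further. On the 3 Caki-1 DMSO arrays its log2 signal was 5.34, 4.87 and 4.85. The signal was 6.12, 6.63 and 6.46 at 6 h, 6.76, 7.42 and 7.37 at 12 h, and 8.12, 8.32 and 8.26 at 24 h. All treated Caki-1 arrays lay above all DMSO arrays, and each later time lay above the earlier one without overlap. On the 769-P DMSO arrays the signal was 9.29, 9.43 and 9.45. It was 9.82, 9.82 and 9.67 at 6 h, 10.27, 10.40 and 10.15 at 12 h, and 10.73, 10.94 and 10.76 at 24 h. The same order without overlap held in 769-P, and all 769-P arrays lay above all Caki-1 arrays.

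**Figure D1:**
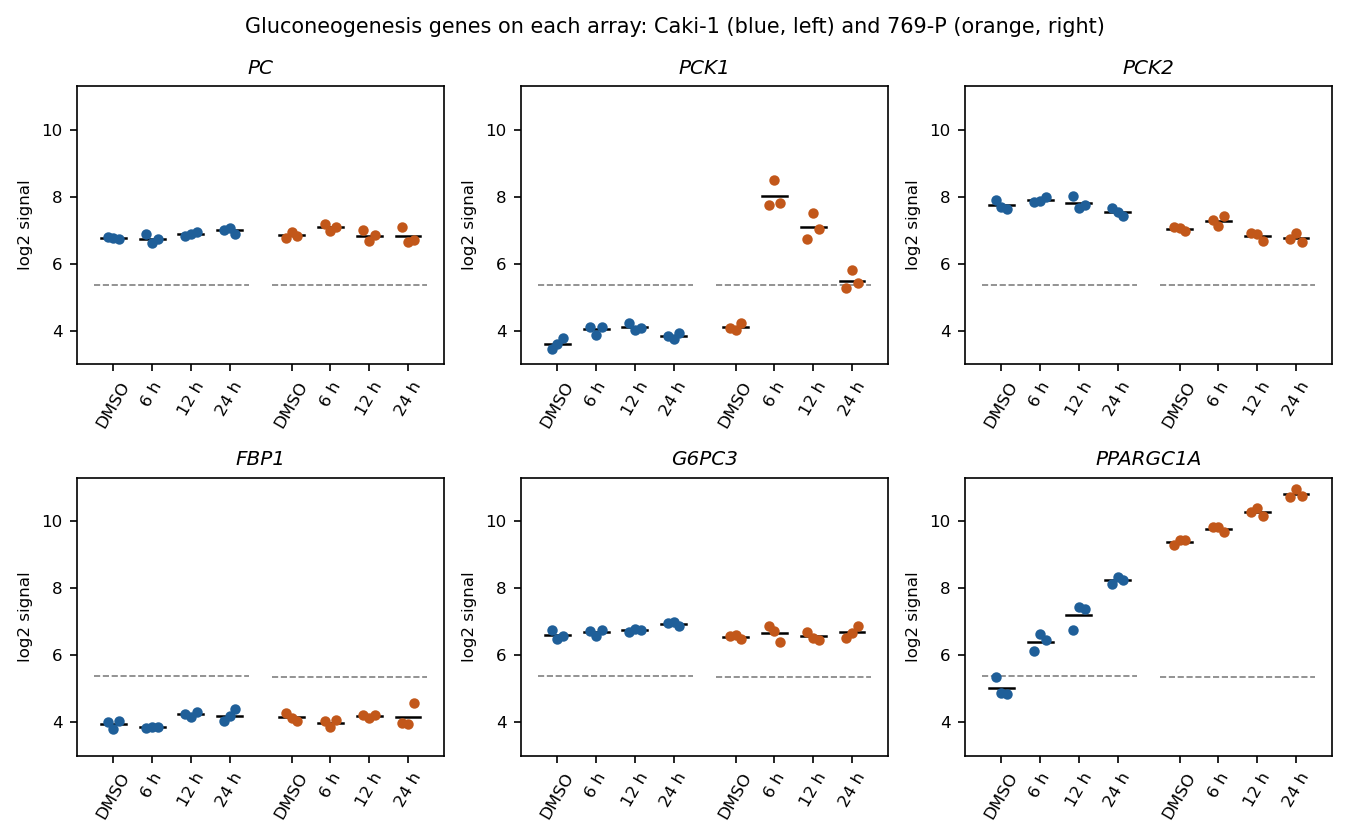
Log2 signal of the 6 genes on each of the 24 arrays, by line and group, with points for arrays, black bars for group means and a dashed line for the filter level of the line. PPARGC1A climbs from DMSO to 24 h in both lines. The group means of PCK1 lie above the dashed line in treated 769-P only, and FBP1 stays below it in every group.

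In Caki-1 PPARGC1A rose by 1.38 ± 0.18 at 6 h (log2 change ± SE, n = 3 arrays in each group, limma adjusted p = 5.4e-05). It rose by 2.16 ± 0.18 at 12 h (adjusted p = 2.2e-07) and by 3.21 ± 0.18 at 24 h (adjusted p = 1.4e-09). The mean under DMSO, 5.02, lay below the filter level, so the gene was tested in Caki-1 only through its treated arrays, and no dependable fold can be taken from so dim a level. In 769-P it rose by 0.38 ± 0.08 at 6 h (adjusted p = 0.00275), 0.88 ± 0.08 at 12 h (adjusted p = 4.6e-07) and 1.42 ± 0.08 at 24 h (adjusted p = 1.1e-09), the last 2.68-fold. From 6 h to 24 h it rose by a further 1.83 ± 0.18 in Caki-1 (adjusted p = 8.9e-07) and 1.04 ± 0.08 in 769-P (adjusted p = 7.6e-08). RNA came from whole cultures, so a change in some of the cells and a smaller change in all of them cannot be told apart.

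Under DMSO the Caki-1 signal of PPARGC1A minus that of 769-P was -4.37 ± 0.15 on the log2 scale (adjusted p = 4.9e-18). The Caki-1 value there is below the filter level, and the size depends on the probe sets: it was -3.70 ± 0.21 with the second brightest and -2.28 ± 0.11 with the mean of all 4. The increase against DMSO was larger in Caki-1, by 1.00 ± 0.21 at 6 h (adjusted p = 0.00267), 1.28 ± 0.21 at 12 h (adjusted p = 9.0e-05) and 1.79 ± 0.21 at 24 h (adjusted p = 5.9e-07), in limma's test of the difference over 24 arrays. After 24 h the mean of Caki-1, 8.23 ± 0.11 (SD), was still below the DMSO mean of 769-P, 9.39 ± 0.09 (SD).

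The 4 probe sets of PPARGC1A did not give the same sizes. The second brightest, with a mean of 6.63 against 8.39 for the first, had a change of 0.47 ± 0.18 in 769-P at 6 h, which did not pass (adjusted p = 0.066). It rose by 0.93 ± 0.18 at 12 h (adjusted p = 5.1e-04) and 1.24 ± 0.18 at 24 h (adjusted p = 2.4e-05) there. In Caki-1 it was below the filter level on average, and its differences from DMSO were 0.46, 1.15 and 2.35, with overlap at 6 h and none at 12 h and 24 h. With this probe set the difference between the lines was -0.01 ± 0.29 at 6 h (adjusted p = 0.996) and 0.22 ± 0.29 at 12 h (adjusted p = 0.688), and it passed at 24 h, at 1.11 ± 0.29 (adjusted p = 0.0054). With the mean of all 4 probe sets it was 0.34 at 6 h (adjusted p = 0.226) and 0.20 at 12 h (adjusted p = 0.421), and the 769-P change at 6 h was 0.14 (adjusted p = 0.393). The second brightest probe set entered the test of the difference only through 769-P, so its call at 24 h adds no weight. At 6 h and 12 h the larger increase in Caki-1 was called with the brightest only. The 24 h difference was called in all 22 alternatives, with values from 0.80 to 1.95 (highest limma adjusted p = 0.0057). The 769-P call at 6 h was also lost when all 24 arrays shared 1 fit (adjusted p = 0.0535). The third and the fourth probe sets stayed below the filter level in all groups.

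PC, the entry step, gave different results with its 2 probe sets. The brightest, made for a cDNA clone, barely moved. The other, made for a RefSeq transcript, rose at every time in both lines. Their means over the 24 arrays, which chose between them, were 6.87 and 6.72. With the brightest probe set the log2 signal on Caki-1 arrays was 6.79, 6.75 and 6.72 under DMSO, 6.90, 6.60 and 6.72 at 6 h, 6.81, 6.89 and 6.94 at 12 h, and 7.02, 7.08 and 6.88 at 24 h. On 769-P arrays it was 6.77, 6.93 and 6.82 under DMSO, 7.19, 6.99 and 7.11 at 6 h, 6.99, 6.67 and 6.84 at 12 h, and 7.09, 6.65 and 6.72 at 24 h. The Caki-1 arrays at 12 h and 24 h and the 769-P arrays at 6 h lay above their DMSO arrays, and the other groups overlapped them.

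The change with the brightest PC probe set was 0.24 ± 0.10 in Caki-1 at 24 h (limma adjusted p = 0.043). That call was lost under most alternatives, for example with the replicate number as a block (adjusted p = 0.054) or without a filter (adjusted p = 0.066). It was also lost without any single Caki-1 DMSO array (adjusted p from 0.056 to 0.11) and without replicate 1 or 2 at 24 h (adjusted p = 0.088 and 0.13). At 6 h and 12 h in Caki-1 the changes were -0.01 and 0.13, and in 769-P they were 0.25, -0.01 and -0.02 at the 3 times, and none of these passed. From 6 h to 24 h the change in Caki-1 was 0.25 ± 0.10 (adjusted p = 0.039), a call lost in the same way, for example without replicate 2 at 6 h (adjusted p = 0.17). The 95% confidence intervals in 769-P ran from -0.01 to 0.52 at 6 h, from -0.27 to 0.26 at 12 h and from -0.29 to 0.24 at 24 h.

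With the other PC probe set the signal on Caki-1 arrays was 6.34, 6.11 and 6.10 under DMSO, 6.53, 6.81 and 6.83 at 6 h, 6.998, 7.34 and 7.48 at 12 h, and 7.36, 7.71 and 7.80 at 24 h. On 769-P arrays it was 5.98, 5.85 and 5.83 under DMSO, 6.44, 6.72 and 6.36 at 6 h, 7.12, 7.06 and 7.24 at 12 h, and 6.43, 6.33 and 6.43 at 24 h. Every treated array lay above every DMSO array of its line. In a fit in which each probe set was tested on its own, which was added after seeing the data, it rose in Caki-1 by 0.54 ± 0.14 at 6 h (adjusted p = 0.013), 1.09 ± 0.14 at 12 h (adjusted p = 1.7e-05) and 1.44 ± 0.14 at 24 h (adjusted p = 3.9e-07), the last 2.71-fold. In 769-P it rose by 0.62 ± 0.11 at 6 h (adjusted p = 7.6e-04), 1.25 ± 0.11 at 12 h (adjusted p = 4.1e-07, 2.38-fold) and 0.51 ± 0.11 at 24 h (adjusted p = 0.0013). The increase at 24 h was larger in Caki-1 by 0.93 ± 0.19 (adjusted p = 4.9e-04). Probe sets of a gene can read different transcripts, and which transcripts these 2 read was not tested.

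**Figure D2:**
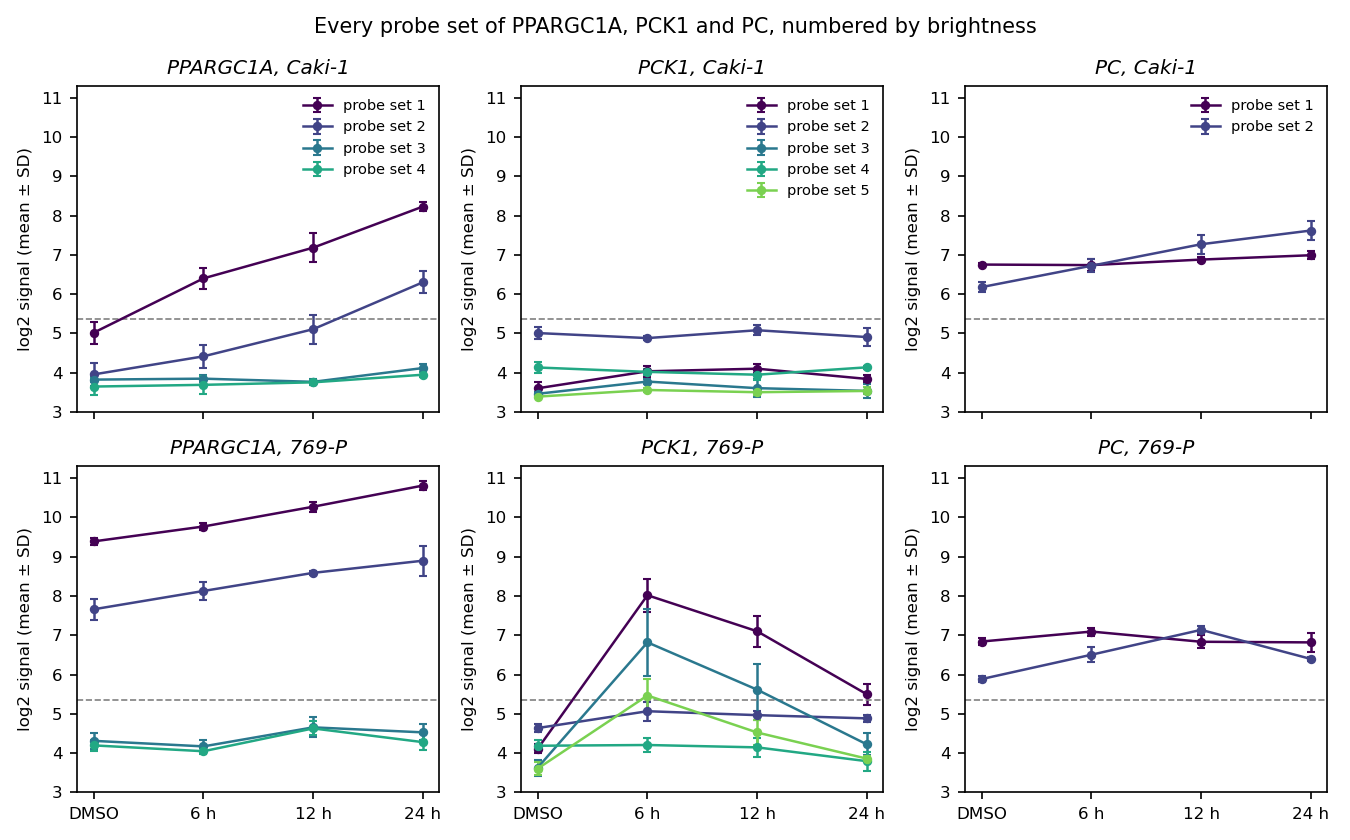
Mean log2 signal ± SD (n = 3 arrays) in each group for every probe set of PPARGC1A, PCK1 and PC, numbered from the brightest by mean over 24 arrays, with the filter level dashed. Probe set 2 of PC rises with treatment while probe set 1 is nearly flat. Probe sets 1, 3 and 5 of PCK1 rise in 769-P, most at 6 h, and come down by 24 h. Probe set 3 is below the filter level there at 24 h, and probe set 5 at 12 h and 24 h.

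PCK1, the cytosolic carboxykinase, rose in 769-P, most at 6 h, and came down again by 24 h. In Caki-1 it stayed in the dim range. On the 769-P DMSO arrays its log2 signal was 4.08, 4.02 and 4.24. It was 7.75, 8.51 and 7.80 at 6 h, 6.74, 7.52 and 7.04 at 12 h, and 5.27, 5.80 and 5.42 at 24 h. All treated 769-P arrays lay above the DMSO arrays, and the 3 times did not overlap. On Caki-1 arrays the signal was 3.44, 3.60 and 3.77 under DMSO, 4.104, 3.88 and 4.12 at 6 h, 4.22, 4.02 and 4.07 at 12 h, and 3.84, 3.75 and 3.93 at 24 h. All of these lay below the filter level, and the 24 h arrays overlapped the DMSO arrays.

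In 769-P PCK1 rose by 3.91 ± 0.21 at 6 h (limma adjusted p = 3.3e-09). It was up by 2.99 ± 0.21 at 12 h (adjusted p = 1.95e-08) and by 1.38 ± 0.21 at 24 h (adjusted p = 3.7e-05). Between 6 h and 24 h it fell by 2.52 ± 0.21 (adjusted p = 1.1e-07). Its DMSO mean of 4.11 was below the filter level, so it was tested in 769-P only through its treated arrays, and a level this dim gives no dependable fold. In Caki-1 it did not pass the filter. Fitted without the filter, its changes there were 0.43 ± 0.10, 0.50 ± 0.10 and 0.24 ± 0.10 at 6, 12 and 24 h, with adjusted p = 0.0077, 0.0012 and 0.074. The difference, Caki-1 less 769-P, was -3.47 ± 0.26 at 6 h (adjusted p = 2.7e-09), -2.49 ± 0.26 at 12 h (adjusted p = 2.3e-07) and -1.15 ± 0.26 at 24 h (adjusted p = 0.0013).

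The choice of the PCK1 probe set leaned on the treated 769-P arrays. Its mean over 24 arrays was 5.04, just above the 4.93 of the second probe set, and over the 6 DMSO arrays it was 3.86 against 4.82. The chosen probe set is of a type that the manufacturer marks as able to bind other transcripts. Probe sets 3 and 5 by brightness moved the same way in 769-P, by 3.19, 1.98 and 0.59 and by 1.86, 0.92 and 0.25 at the 3 times. Probe set 2 gave 0.43, 0.33 and 0.25, and probe set 4 gave 0.02, -0.04 and -0.39. Had the brightest over DMSO arrays been taken, PCK1 would have been below the filter and not tested in either line. None of the other 4 probe sets passed the filter in either line, so their differences carry no test.

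PCK2, the mitochondrial carboxykinase and a known target of ATF4, was called higher at no time. On Caki-1 arrays its log2 signal was 7.90, 7.69 and 7.64 under DMSO, 7.84, 7.87 and 7.98 at 6 h, 8.02, 7.65 and 7.76 at 12 h, and 7.67, 7.53 and 7.41 at 24 h. On 769-P arrays it was 7.09, 7.07 and 6.97 under DMSO, 7.31, 7.12 and 7.42 at 6 h, 6.92, 6.90 and 6.67 at 12 h, and 6.74, 6.92 and 6.66 at 24 h. Treated and DMSO arrays overlapped at every time in Caki-1. In 769-P the 6 h arrays lay above the DMSO arrays and the 12 h and 24 h arrays below them.

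In Caki-1 the PCK2 changes of 0.15, 0.06 and -0.21 did not pass. The last was called with median centring (-0.26, limma adjusted p = 0.045), while the second probe set gave 0.01 (adjusted p = 0.93). In 769-P the changes were 0.24 at 6 h and -0.21 at 12 h, which did not pass, and -0.27 ± 0.11 at 24 h (limma adjusted p = 0.0485). This call was lost without the filter (adjusted p = 0.074), with the mean of the 2 probe sets (adjusted p = 0.14), without any single DMSO array (adjusted p from 0.052 to 0.12) and without replicate 1 or 3 at 24 h (adjusted p = 0.10 and 0.17). From 6 h to 24 h PCK2 fell by 0.36 ± 0.11 in Caki-1 (adjusted p = 0.013) and by 0.51 ± 0.11 in 769-P (adjusted p = 0.0013). The Caki-1 fall was not called with the mean of the probe sets (-0.18, adjusted p = 0.12), with the second probe set (-0.00374, adjusted p = 0.98) or without replicate 3 at 24 h (adjusted p = 0.059). Under DMSO its signal was 0.70 ± 0.11 higher in Caki-1 than in 769-P (adjusted p = 5.7e-06), and 0.22 ± 0.15 higher with the second probe set, which did not pass (adjusted p = 0.23).

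FBP1 stayed below the filter level on all 24 arrays and was tested in no comparison. Its log2 signal on Caki-1 arrays was 3.99, 3.79 and 4.03 under DMSO, 3.83, 3.85 and 3.86 at 6 h, 4.25, 4.15 and 4.31 at 12 h, and 4.03, 4.17 and 4.39 at 24 h. On 769-P arrays it was 4.28, 4.14 and 4.03 under DMSO, 4.03, 3.86 and 4.08 at 6 h, 4.20, 4.12 and 4.22 at 12 h, and 3.99, 3.94 and 4.58 at 24 h. Fitted without the filter, its largest change against DMSO was 0.30 ± 0.10, in Caki-1 at 12 h (adjusted p = 0.034). A signal this dim gives no dependable fold.

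G6PC3, the widely expressed phosphatase, rose a little in Caki-1 at 24 h. Its log2 signal on Caki-1 arrays was 6.75, 6.47 and 6.56 under DMSO, 6.73, 6.56 and 6.75 at 6 h, 6.70, 6.79 and 6.76 at 12 h, and 6.95, 6.98 and 6.86 at 24 h. The 24 h arrays lay above the DMSO arrays, and the earlier ones overlapped them. On 769-P arrays it was 6.57, 6.60 and 6.49 under DMSO, 6.88, 6.73 and 6.41 at 6 h, 6.70, 6.51 and 6.46 at 12 h, and 6.53, 6.66 and 6.86 at 24 h, with overlap at every time. The rise in Caki-1 at 24 h was 0.34 ± 0.10 (limma adjusted p = 0.0064, 1.27-fold). In 769-P the changes were 0.12, 0.01 and 0.13, with 95% confidence intervals from -0.16 to 0.39, from -0.27 to 0.28 and from -0.15 to 0.40. The difference between the lines at 24 h was 0.21 ± 0.16 and did not pass (adjusted p = 0.315), so the rise was not shown to differ between them. Its change from 6 h to 24 h in Caki-1, 0.25 ± 0.10 (adjusted p = 0.037), was lost under several alternatives, for example without replicate 2 at 6 h (adjusted p = 0.15).

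Counted over the 6 genes, 4 passed the filter in Caki-1 and 5 in 769-P. At 6 h in Caki-1 1 of 4 rose, beside 26.3% of all genes tested called either way (12.3% higher, 14% lower). At 12 h 1 of 4 rose, beside 48.4% called (24.1% higher, 24.4% lower). At 24 h 3 of 4 rose, beside 62.8% called (32.9% higher, 29.9% lower). In 769-P at 6 h 2 of 5 rose, beside 30.9% called (16.3% higher, 14.5% lower). At 12 h 2 of 5 rose, beside 47.5% called (24.9% higher, 22.6% lower). At 24 h 2 rose and 1 fell, beside 55.7% called (31.1% higher, 24.7% lower). These shares of the genes tell little, since many genes of the array were called at the later times.

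From 6 h to 24 h 3 of 4 rose and 1 fell in Caki-1, beside 53.7% called (28.1% higher, 25.6% lower). In 769-P 1 of 5 rose and 2 fell, beside 44.3% called (25.8% higher, 18.5% lower). In the tests of the difference between the lines, PPARGC1A was higher and PCK1 lower at each time, 2 of 5. Of all genes 8.09% were called in that test at 6 h (3.68% higher, 4.42% lower), 18.9% at 12 h (8.68% and 10.3%) and 36% at 24 h (13.8% and 22.1%). Under DMSO 3 of 5 differed, PCK2 higher in Caki-1 and PPARGC1A and PCK1 lower, beside 58.7% called (28.8% higher, 29.9% lower). The PCK1 difference under DMSO, -0.51 ± 0.18 (adjusted p = 0.021), lay between values below the filter level. It was lost without Caki-1 replicate 1 (adjusted p = 0.084) or 769-P replicate 3 (adjusted p = 0.077). Because PPARGC1A in Caki-1 and PCK1 in 769-P were tested only through their treated arrays, these counts describe the genes and carry no weight beyond that.

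Of the 4 other genes of the specific steps on the array, G6PC1 and FBP2 lay below the filter level. G6PC1, the phosphatase of liver and kidney, was between 4.56 and 5.08 as group means in both lines. G6PC2 was tested and not called at any time against DMSO. SLC37A4, which carries glucose 6-phosphate into the endoplasmic reticulum for the phosphatase, rose in 769-P by 0.45 ± 0.08 at 6 h, 0.90 ± 0.08 at 12 h and 0.98 ± 0.08 at 24 h (limma adjusted p = 7.4e-08 at 24 h). In Caki-1 it fell by 0.21 ± 0.07 at 24 h (adjusted p = 0.015). The difference between the lines at 24 h was -1.19 ± 0.11 (adjusted p = 1.3e-08).

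Among glucose transporters, SLC2A2 (GLUT2), the carrier through which tubule and liver cells release glucose, rose in 769-P and was dim in Caki-1. Its mean log2 signal in 769-P was 8.42 under DMSO and 10.38 at 24 h, a rise of 1.95 ± 0.14 (limma adjusted p = 1.2e-08). In Caki-1 its group means lay between 4.49 and 4.71, below the filter level. SLC2A1 (GLUT1), the main uptake carrier of many tumour cells, fell by 1.47 ± 0.13 in Caki-1 at 24 h. In 769-P it fell by 1.55 ± 0.17. SLC2A12 rose in Caki-1 by 0.85 ± 0.14, from 5.08 under DMSO, below the filter level, and was not tested in 769-P. Of 4 transporters tested in Caki-1 1 rose and 1 fell, and of 3 tested in 769-P 1 rose and 1 fell, beside 62.8% and 55.7% of all genes called.

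The enzymes that serve both glycolysis and gluconeogenesis showed no common direction. Of 10 tested at 24 h, 2 rose and 3 fell in Caki-1 (median change 0.03, beside 0.08 over all genes) and 2 rose and 4 fell in 769-P (median -0.02, beside 0.04), beside 62.8% and 55.7% of all genes called. The enolase ENO1 fell by 0.59 ± 0.06 in each line. The aldolase ALDOC rose by 1.29 ± 0.13 and the enolase ENO2 by 0.42 ± 0.14 in Caki-1, and neither was called in 769-P. The enolase ENO3 fell by 0.69 ± 0.14 and the mutase PGAM1 by 0.42 ± 0.05 in 769-P, and neither was called in Caki-1. Differences between the lines are not read from these calls.

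Regulators of gluconeogenesis were read from a list of 28 genes, mostly transcription factors and their partners. The insulin receptor and its adaptors were also in it. More of the list rose than fell at 24 h. The list was not split by whether a gene raises or lowers gluconeogenesis, so the counts give no direction for the pathway. Of 23 tested, 16 rose and 2 fell in Caki-1, with a median change of 0.43 beside 0.08 over all genes, where 32.9% of genes rose and 29.9% fell. In 769-P 12 of 23 rose and 2 fell, with a median of 0.30 beside 0.04, where 31.1% rose and 24.7% fell. FOXO1, the forkhead factor that insulin signalling holds out of the nucleus, had means of 7.81 in Caki-1 and 8.75 in 769-P under DMSO. It rose in Caki-1 by 2.69 ± 0.09, 3.003 ± 0.09 and 3.12 ± 0.09 at 6, 12 and 24 h, and in 769-P by 0.64 ± 0.09, 0.67 ± 0.09 and 0.91 ± 0.09. The difference at 24 h was 2.20 ± 0.13 (limma adjusted p = 7.9e-12). PPARA, the nuclear receptor of the fasting response, rose by 1.61 ± 0.16 in Caki-1 at 24 h and by 1.37 ± 0.17 in 769-P. Likewise, the insulin receptor INSR rose by 1.48 ± 0.16 in Caki-1, from a DMSO mean of 4.68 below the filter level, and by 1.68 ± 0.19 in 769-P. Its adaptor IRS1 fell by 1.05 ± 0.10 in Caki-1 and fell by 2.11 ± 0.18 in 769-P. CRTC2, the CREB coactivator, was called in no comparison with DMSO, with changes from -0.11 to 0.17.

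Genes known as targets of PPARGC1A or as parts of mitochondrial biogenesis did not move in one direction. Of 18 tested at 24 h, 5 rose and 10 fell in Caki-1, with a median of -0.27 beside 0.08 over all genes, where 32.9% rose and 29.9% fell. In 769-P 5 rose and 5 fell, with 55.7% of all genes called, so that count is at the background. PDK4, a kinase that holds pyruvate back from oxidation, rose by 5.24 ± 0.28 in Caki-1 and 1.18 ± 0.30 in 769-P, from DMSO means of 4.56 and 4.50 that lay below the filter level. CPT1A, which admits fatty acids to mitochondria, rose by 1.27 ± 0.13 in Caki-1 and 1.31 ± 0.24 in 769-P. TFAM, the mitochondrial transcription factor, fell by 1.56 ± 0.10 in Caki-1 and 0.82 ± 0.10 in 769-P, and the respiratory chain protein CYCS fell by 1.36 ± 0.06 in Caki-1 and fell by 0.42 ± 0.06 in 769-P.

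ATF4, which induces PCK2 and genes of amino acid supply, changed little. It rose by 0.16 ± 0.06 in Caki-1 at 24 h (limma adjusted p = 0.020) and fell in 769-P by 0.22, 0.21 and 0.15 at the 3 times (adjusted p = 0.0099, 0.0080 and 0.043). Of 25 genes of the ATF4 and amino acid response list, 10 rose and 10 fell at 24 h in each line. The list medians were -0.13 in Caki-1 and -0.09 in 769-P, beside 0.08 and 0.04 over all genes, of which 32.9% rose and 29.9% fell in Caki-1 and 31.1% and 24.7% in 769-P. NUPR1, a stress response factor, rose by 2.64 ± 0.16 in Caki-1 and 1.40 ± 0.15 in 769-P. DDIT4, an inhibitor of mTORC1, rose by 2.08 ± 0.16 in Caki-1 and 2.01 ± 0.11 in 769-P. ATF3, a factor of the same family, rose by 1.01 ± 0.14 in Caki-1 and 2.10 ± 0.15 in 769-P. MTHFD2, a mitochondrial folate enzyme, fell by 1.56 ± 0.09 in Caki-1 and fell by 2.999 ± 0.14 in 769-P.

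**Figure D3:**
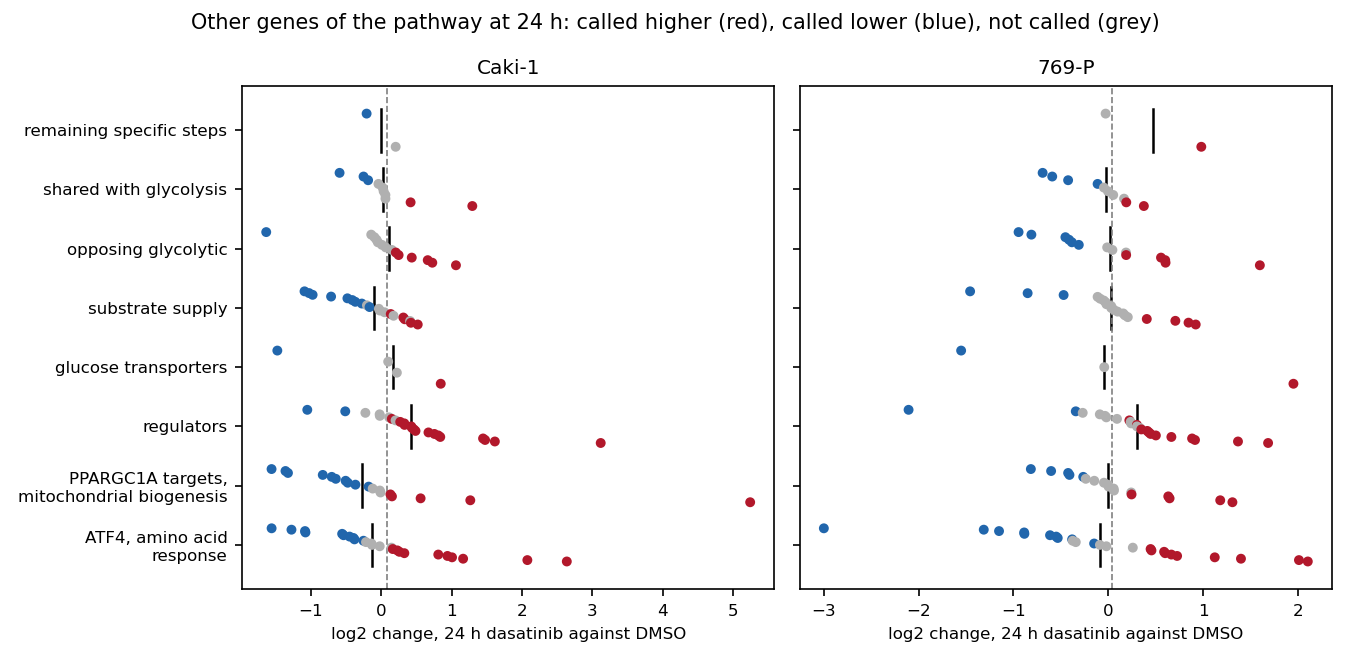
Log2 change at 24 h of dasatinib against DMSO for each tested gene of the pathway lists in Caki-1 and 769-P, with genes called higher in red, called lower in blue and not called in grey, black bars for list medians and a dashed line for the median of all genes. The regulators lie mostly above 0, with medians of 0.43 and 0.30, while the other lists spread to both sides.

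The levels of the marker lists in the same samples were as follows. For the renal and proximal tubule markers the mean log2 signal per array lay between 8.43 and 8.51 under DMSO and between 8.57 and 8.66 at 24 h in Caki-1. In 769-P it lay between 8.30 and 8.38 under DMSO and between 8.72 and 8.82 at 24 h. At 24 h 4 of 10 tested markers rose and 2 fell in Caki-1, and 6 of 10 rose and 2 fell in 769-P, beside 62.8% and 55.7% of all genes called, so the Caki-1 count is at the background. Markers of other cell types lay between 5.42 and 5.44 under DMSO and between 5.61 and 5.79 at 24 h in Caki-1, and between 5.27 and 5.29 and between 5.31 and 5.40 in 769-P. Of these, 5 of 9 tested rose and 1 fell in Caki-1 at 24 h, beside 62.8% of all genes called (32.9% higher, 29.9% lower). The share called either way is thus near the background. In 769-P 0 of 8 were called, beside 55.7%. In Caki-1 COL1A1 rose by 1.05 ± 0.15 and CD68 by 0.52 ± 0.11, while CD14 fell by 0.98 ± 0.15. Their part in the changes of the 6 genes was not tested.

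Likeness in time course was measured as the root mean square difference between log2 changes against DMSO. Over the 6 changes in both lines, among 11910 genes, PPARGC1A was nearest to STAT4 (0.33), a transcription factor of cytokine signalling, EIF4E3 (0.33), a cap-binding protein, and the histone demethylase KDM7A (0.42). Over the 3 changes in 769-P, among 12351 genes, PCK1 was nearest to HMOX1 (0.65), which degrades haem, the forkhead factor FOXQ1 (0.66) and DDIT4 (0.75). HMOX1 had changes of 3.12, 2.58 and 2.07 at the 3 times in 769-P, while PCK1 was at 3.91, 2.99 and 1.38. The small changes of PC, PCK2 and G6PC3, each read from its brightest probe set, had close matches. The nearest were POLN for PC (0.03), THRAP3 for PCK2 (0.07) and MAST4 for G6PC3 (0.03). The other PC probe set, which rose in both lines, was not ranked.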

How the data were processed

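RNA of Caki-1 and 769-P cells was labelled from the 3′ end and hybridised to Affymetrix PrimeView arrays, per the labels' protocols. The deposited values were log2 signals made by the authors, 1 per probe set and array. The submitters' processing notes name MAS5, with no version, and how it was applied to this array, which carries perfect-match probes only, is not given in the sources used here. The arrays had a common level when deposited, so they were not scaled again. Of 49395 probe sets, 102 controls were left out, and 44989 named 1 gene in the platform annotation, updated through Entrez identifiers. No column of other samples was present.

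Groups came from the labels. Changes were tested with limma 3.58.1 in R 4.3.3 (with the data.table package, version 1.17.8), with group means and an intensity trend, on the 12 arrays of a line (8 residual degrees of freedom) or on 24 arrays between lines (16), where a gene had to pass the filter in 1 line. P-values were adjusted over all genes tested by the Benjamini-Hochberg method and called under 0.05. The fits were tested on simulated data. The 6 genes, the lists and the tests were chosen with earlier results of these data known. From each list up to 3 called genes with the largest change at 24 h were named per line. Likeness was ranked over the changes against DMSO, with 3 genes named for a gene with large changes and the nearest for the others. The other line's value of a named gene is given beside it. Marker genes, G6PC1, G6PC2 and FBP2 were named after their values were seen. To see whether replicate numbers pair arrays, each array's deviation from its group mean was correlated between arrays of the same number. All pairs passed 0.1 in 769-P for the 6 h comparison (r from 0.11 to 0.36), the 24 h comparison (r from 0.12 to 0.17) and the comparison of both times (r from 0.10 to 0.19). Elsewhere some pair did not. The main tests paired the arrays in no comparison, and the replicate number entered only as a block among the alternatives. Alternatives were the mean or the second brightest probe set, other filters, quantile normalization, median centring, no trend, other arrays in the fit, a replicate block, and leaving out each array. The brightest probe set over DMSO arrays, and a fit over single probe sets, were added after seeing the data.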

Additional observations from a re-analysis of the deposited data

Results flagged for a closer look

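By limma's test of the difference itself, the response to dasatinib differed between the lines for 2 of the 5 genes tested. Each gene was read there from its brightest probe set. Of all genes tested, 8.09% were called at 6 h, 18.9% at 12 h and 36% at 24 h. The other PC probe set also differed at 24 h, by 0.93 ± 0.19 (adjusted p = 4.9e-04). For PPARGC1A the difference, Caki-1 less 769-P, was 1.00, 1.28 and 1.79 (log2) at 6, 12 and 24 h, with adjusted p = 0.00267, 9.0e-05 and 5.9e-07. All 3 arrays of each treated group lay above the DMSO arrays of their line, which describes each line and not the difference between them. With the second brightest probe set, dim in Caki-1, only the 24 h difference was called. For PCK1 it was -3.47, -2.49 and -1.15, with adjusted p = 2.7e-09, 2.3e-07 and 0.0013, on signals below the filter level in all Caki-1 groups and under DMSO in 769-P. PCK1 entered this test only through its treated 769-P arrays. PPARGC1A entered it through 769-P, where it was bright under DMSO too, while its DMSO mean in Caki-1 was below the filter level. The genes were chosen with earlier results of these data known, so the p-values are no independent support. Groups of 3 arrays were too small to test for single arrays that stand apart.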

How the results depend on the processing

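Of the alternatives tried on the changes of the tested genes among the 6, 829 values kept their direction and side of the threshold. Of the rest, 43 were no longer past it, 10 were newly past it, 25 moved and 7 reversed. The counts of genes called are given below and are not in this tally. The PPARGC1A and PCK1 changes against DMSO kept their direction and call with their own probe sets, with the exception of PPARGC1A in 769-P at 6 h given above. All 7 reversed values came from another way of reading a gene. With the mean of the probe sets PC changed by 0.26 in Caki-1 at 6 h, by 0.62 in 769-P after 12 h and by 0.24 after 24 h, and with the second brightest probe set by 0.54, 1.25 and 0.51. The 6 h difference of PPARGC1A between the lines was -0.0058 with its second brightest probe set.

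With the second brightest probe set, which only genes with over 1 probe set have, fewer genes were tested and fewer called: 1509, 3192 and 4254 in Caki-1 at 6, 12 and 24 h, 1751, 2973 and 3704 in 769-P, 3587 and 2783 for 24 h against 6 h in Caki-1 and 769-P, 419, 1043 and 2219 for the difference between the lines, and 4124 under DMSO. The counts of the 6 genes called were small and moved easily. With the second brightest probe set 1 was called in Caki-1 at 24 h, 1 in 769-P at 6 h, 1 for 24 h against 6 h in each line, 0 for the difference at 6 h and at 12 h, and 1 under DMSO. With the mean of the probe sets 1 was called in 769-P at 6 h and 2 for 24 h against 6 h in Caki-1. For the difference 0 were called at 6 h and at 12 h. Under both readings PCK1 passed the filter in neither line and was not tested, and PPARGC1A passed only in 769-P. In 769-P at 6 h the 1 called was PC under both. Its change was 0.44 with the mean (limma adjusted p = 0.0010) and 0.62 with the second brightest (adjusted p = 8.0e-04). No share of all genes stands beside these counts, so they are not read as results. Without a filter 2 and 3 were called in Caki-1 at 6 h and 12 h. A filter at the 60th percentile removes PPARGC1A in Caki-1, PCK1 in 769-P and G6PC3 in both lines. With it the counts in Caki-1 were 0, 0 and 1 at 6, 12 and 24 h and 2 for 24 h against 6 h. In 769-P they were 1 at 6 h and 1 at 12 h, and for the difference between the lines 1 at each time. Median centring and other arrays in the fit gave 2 for 24 h against 6 h in Caki-1, and the latter 1 in 769-P at 6 h. The brightest probe set over DMSO arrays, an alternative chosen after seeing the data, gave 1 in 769-P at 6 h and 12 h and 1 for the difference at each time, since PCK1 was not tested.

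Leaving out 1 array gave 2384 to 3150, 5158 to 5958 and 6916 to 7663 genes called in Caki-1, 3057 to 3513, 5221 to 5647 and 6324 to 6676 in 769-P, 5850 to 6529 and 4789 to 5220 for 24 h against 6 h, 825 to 1044, 1993 to 2597 and 4047 to 4646 for the difference, and 6969 to 7300 under DMSO. Of the 6 genes, 2 to 3 stayed called for 24 h against 6 h in Caki-1. With the replicate block 2 of the 6 genes were called in Caki-1 at 24 h, where PC had an adjusted p = 0.054, and the block changed no other call of theirs. It gave 3671, 6335 and 7982 genes in Caki-1 and 4359, 6252 and 7170 in 769-P. Other scaling moved the median of all genes by less than 0.1. With median centring 3441 genes rose and 4023 fell in Caki-1 at 24 h, beside 4083 and 3716 with the main scaling. Quantile normalization gave 4309 and 3374 there. Which direction had more calls in Caki-1 at 24 h thus depended on the scaling.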

Other observations

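Enzymes that supply substrate to gluconeogenesis, and the glycolytic enzymes that oppose it, were counted at 24 h beside all genes, with no test of the lists. Of 20 genes of lactate, glutamine, glycerol and shuttle supply tested in Caki-1, 5 rose and 9 fell (median -0.10, beside 0.08 over all genes), where 32.9% of all genes rose and 29.9% fell. Of 19 in 769-P 4 rose and 3 fell (median 0.03, beside 0.04), where 31.1% rose and 24.7% fell. GOT2, the mitochondrial aspartate aminotransferase, fell by 1.02 ± 0.07 in Caki-1 and fell by 0.47 ± 0.06 in 769-P. GPD2, a mitochondrial glycerol phosphate dehydrogenase, fell by 0.71 ± 0.09 and fell by 0.85 ± 0.10. MPC1, a part of the mitochondrial pyruvate carrier, rose by 0.34 ± 0.14 and 0.92 ± 0.14. The glutamine carrier SLC1A5 rose by 0.42 ± 0.08 in Caki-1 and fell by 1.46 ± 0.15 in 769-P. The dicarboxylate carrier SLC25A10 fell by 1.09 ± 0.10 and the glycerol phosphate dehydrogenase GPD1L fell by 0.97 ± 0.11 in Caki-1, and neither was called in 769-P.

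Of 14 opposing glycolytic enzymes and regulators of the bypass, 6 rose and 1 fell in Caki-1 (median 0.11, beside 0.08), where 32.9% of all genes rose and 29.9% fell. In 769-P 5 rose and 6 fell (median 0.02, beside 0.04), where 31.1% rose and 24.7% fell. TIGAR, a fructose bisphosphatase that lowers glycolytic flux, fell by 1.63 ± 0.13 in Caki-1 and fell by 0.81 ± 0.13 in 769-P. PFKFB4, which sets the level of fructose 2,6-bisphosphate, rose by 1.06 ± 0.28 in Caki-1 and fell by 0.38 ± 0.14 in 769-P. The hexokinase HKDC1 rose by 0.73 ± 0.08 and 0.60 ± 0.13. The related PFKFB2 rose by 1.60 ± 0.17, from a DMSO mean of 5.13 below the filter level, and the hexokinase HK2 fell by 0.95 ± 0.15 in 769-P, and neither was called in Caki-1.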
